A study of Mus musculus with 12 samples.

Results

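The collagen genes of mouse lung were followed across 4 groups of arrays. They were taken as every gene whose symbol on the platform is Col, a number, a and a number, with probe sets that name no other gene. The Affymetrix Murine Genome 430A array carries 36 such genes on 58 probe sets, among 12394 named genes, and the symbol and gene identifier of all 36 matched RefSeq. The mice were of the CD-1/ICR strain and either had Nrf2 (Nrf2+/+, wild type) or lacked it (Nrf2-/-, knockout). The gene for Nrf2 is Nfe2l2, and its product drives much of the antioxidant response of cells. Each genotype had 3 arrays of lungs after 2 h of spontaneous ventilation (SpV, the controls) and 3 of lungs after 2 h of mechanical ventilation at a high tidal volume of 30 ml/kg (HVT). The study's title places the experiment in ventilator-induced lung injury and oxidative stress. Ages and sexes are not given in the labels used here, and the labels do not describe the knockout allele. By their labels, 11 arrays are of the left lobe, and array 1 of the wild-type SpV group is of whole lung.

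Collagens are the main structural proteins of the extracellular matrix, and each molecule is a triple helix of alpha chains encoded by separate genes. Fibril-forming collagens (types I, III, V and XI here) give airways, vessels and alveolar septa their tensile strength, and are made mostly by fibroblasts and smooth muscle cells. Type IV collagen forms the sheet of the basement membranes under epithelium and endothelium, type VI forms beaded filaments around cells, and type VII anchors the basement membrane to the tissue beneath. The remaining types decorate fibrils, cross the cell membrane or lie in basement membrane zones. An mRNA level after 2 h is a reading of transcripts, and no protein was measured here.

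The signals given below are normalized intensities, which are linear. A gene counted as measured when a probe set of it reached a signal of 100 on at least 3 of the 12 arrays, and its brightest probe set then stood for it. Of the 36 collagen genes, 25 were measured. Of these, 24 had an array at that minimum in every group and 22 had it on all 12 arrays. The exceptions among the 25 were Col11a2, at the minimum on 6 arrays of 3 groups, Col8a1 on 10 arrays and Col13a1 on 11. The 25 were the fibril-forming Col1a1, Col1a2, Col3a1, Col5a1, Col5a2, Col5a3 and Col11a2, the 6 type IV genes Col4a1 to Col4a6, the 3 type VI genes Col6a1 to Col6a3, Col7a1, the short-chain network gene Col8a1, the fibril-associated Col9a1, Col14a1, Col16a1 and Col20a1, the transmembrane Col13a1, and Col15a1 and Col18a1 of basement membrane zones. The 11 below the filter were Col2a1, Col9a2, Col9a3, Col10a1, Col11a1, Col12a1, Col17a1, Col19a1, Col22a1, Col25a1 and Col26a1. Several of them, such as Col2a1 and Col10a1, are known as cartilage collagens, as are Col9a1 and Col11a2 among the measured genes. A second Col9a1 probe set read only 19.2 to 56.5. The highest signals of Col9a2 and Col9a3 were 9.96 and 23.5. Col12a1 reached the minimum on 2 arrays, at most 193, Col25a1 on 1 array at 108, and Col2a1 had a highest signal of 77.5. The 8 cartilage markers looked up (Acan, Matn1, Matn3, Comp, Cnmd, Sox9, Hapln1 and Epyc) were all below the filter as well, with a highest signal of 106 for Acan.

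Promoter sequence is shown for 4 genes that the results return to: Col1a2 and Col3a1 of the interstitial fibrils, Col4a5 of the basement membrane, and Col7a1, whose window held the motif that Nrf2 binds. RefSeq windows of the GRCm38.p6 build, from 250 bases before to 50 after an annotated start (300 bases in all), were given for 27 of the 36 genes and for 21 of the 25 measured, among them neither Col1a1 nor Col5a2. The stretches below run 5′ to 3′ and end at the base before the first annotated start, and capitals mark the motifs found.
Col1a2 (chr6:4505418-4505617, plus strand): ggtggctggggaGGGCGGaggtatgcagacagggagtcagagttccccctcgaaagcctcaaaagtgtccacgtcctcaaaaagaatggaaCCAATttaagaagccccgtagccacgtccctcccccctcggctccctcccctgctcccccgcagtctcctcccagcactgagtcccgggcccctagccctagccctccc
Col3a1 (chr1:45311388-45311537, plus strand): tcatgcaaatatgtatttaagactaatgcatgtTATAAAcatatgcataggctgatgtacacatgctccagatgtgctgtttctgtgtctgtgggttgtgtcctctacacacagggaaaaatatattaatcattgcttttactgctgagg
Col4a5 (chrX:141475170-141475369, plus strand): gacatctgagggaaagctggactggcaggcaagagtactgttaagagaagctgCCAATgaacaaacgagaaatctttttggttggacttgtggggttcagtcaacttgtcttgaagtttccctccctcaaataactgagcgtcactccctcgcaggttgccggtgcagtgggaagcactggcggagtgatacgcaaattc
Col7a1 (chr9:108953386-108953585, plus strand): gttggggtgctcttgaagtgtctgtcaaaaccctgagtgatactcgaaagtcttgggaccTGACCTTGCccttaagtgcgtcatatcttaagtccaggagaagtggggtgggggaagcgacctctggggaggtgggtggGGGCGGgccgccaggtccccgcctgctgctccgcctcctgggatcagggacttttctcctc

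In these stretches Col1a2 held a GC box (GGGCGG) and a CCAAT box (CCAAT), Col3a1 a TATA box (TATAAA), Col4a5 a CCAAT box, and Col7a1 a GC box and a match to the core of the antioxidant response element, TGACNNNGC. Both strands were searched, and none of the motifs overlapped in the printed stretches. Over the full windows of the measured genes, 4 of 24 (16.7%) held TGACNNNGC, those of Col4a2, Col6a2, Col7a1 and Col13a1, against 12.4% of all 32851 windows of this length. GGGCGG was in 14 of 24 (58.3%, against 35.7%), CCAAT in 9 (37.5%, against 37.4%) and TATAAA in 3 (12.5%, against 13.6%). A match describes the letters only.

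The arrays were not alike. Trimmed mean signals before normalization ran from 73.9 to 469, and the lowest, knockout SpV array 1, also had a 3' to 5' ratio of the actin controls of 8.76, against 1.39 to 3.10 on the other 11. The 3 knockout HVT arrays had trimmed means of 182 to 247, below all but that one. Their actin ratios of 2.21 to 3.10 all lay above those of the wild-type HVT arrays, at 1.53 to 1.99. Knockout HVT array 2 had high skeletal muscle markers, with an Acta1 signal of 15456 against 122 to 355 elsewhere. Nfe2l2 checked the genotype labels, at 36.2 to 61.3 on the 6 knockout arrays and at 2144 to 3298 on the 6 wild-type arrays. Lung markers were high on all 12 arrays (Sftpc 12126 to 26277, Scgb1a1 22099.6 to 26277), as the tissue label says. In whole tissue, fewer cells of a type and less RNA per cell cannot be told apart.

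Differences are given as log2 values ± SE on the log2(signal + 16) scale, from limma fitted to all 9294 measured genes with 3 arrays per group, and a gene was called at a Benjamini-Hochberg adjusted p under 0.05. Across 7 comparisons, 1 call was made among the collagen genes: Col4a5, an alpha chain of type IV collagen, was lower in the knockout when the genotype difference was averaged over SpV and HVT. That comparison called 3.74% of all genes, 2.14% as lower. No collagen gene was called for ventilation in the wild type (0.0753% of all genes called), ventilation in the knockout (0%), genotype in SpV lungs (0.334%), genotype in HVT lungs (0.742%), the interaction (0%) or ventilation averaged over genotypes (0.108%). At an unadjusted p under 0.05, the collagen genes numbered 7, 4, 8, 2, 4 and 5 of 25 in these 6 comparisons, in that order, where 8.02%, 10.6%, 13.8%, 12.8%, 4.86% and 13.3% of all genes passed, and 9 of 25 in the averaged genotype comparison, where 21.4% did.

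In wild-type lungs no collagen gene passed the test for ventilation, and most had a value below 0. The log2 difference was below 0 for 20 of the 25 genes, against 55.9% of all genes, at a median of -0.31 against -0.04 for all genes. All 7 fibril-forming genes were on that side, at a median of -0.61, as were the 3 type VI genes at -0.37 and 5 of the 6 type IV genes at -0.28. The 4 fibril-associated genes lay on both sides of 0, at a median of -0.02. Without wild-type HVT array 3 the median of the 25 was -0.20. With arrays weighted by their estimated quality, an estimate that stopped before reaching its convergence tolerance, 6 collagen genes were called in this comparison in place of 0, where the share of all genes called was 4.64% in place of 0.0753%.

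Col1a1 encodes the more abundant chain of type I collagen. Its signal was 1891, 1364 and 2501 on the wild-type SpV arrays, 746, 1544 and 612 on the wild-type HVT arrays, 1054, 629 and 835 on the knockout SpV arrays and 1174, 1064 and 1012 on the knockout HVT arrays. The wild-type SpV arrays were high, but wild-type HVT array 2 lay above the lowest of them, so those groups overlapped. The log2 difference with ventilation in the wild type was -1.05 ± 0.32 (adjusted p = 0.349). Col1a2 encodes the second chain of type I collagen. Its signal was 5688, 5657 and 6406 on the wild-type SpV arrays, 3701, 4458 and 3038 on the wild-type HVT arrays, 4685, 3334 and 4854 on the knockout SpV arrays and 3798, 3764 and 3888 on the knockout HVT arrays. All 3 wild-type SpV arrays lay above all 9 others, and the difference with ventilation in the wild type was -0.68 ± 0.17 (adjusted p = 0.246). Col3a1, the single chain of type III collagen, is laid down with type I in vessel walls and septa. Its signal was 11089.6, 8169 and 10354 on the wild-type SpV arrays, 6072, 7550.4 and 4781 on the wild-type HVT arrays, 6457, 4244 and 6419 on the knockout SpV arrays and 6977, 8578 and 7342 on the knockout HVT arrays. In the wild type every HVT array lay below every SpV array, with a difference of -0.70 ± 0.20 (adjusted p = 0.334). Col6a3 encodes the largest chain of type VI collagen. Its signal was 1965, 1828 and 2311 on the wild-type SpV arrays, 1223, 1607 and 1013 on the wild-type HVT arrays, 1076, 1329 and 1755 on the knockout SpV arrays and 954, 1036 and 944 on the knockout HVT arrays. The wild-type HVT arrays again lay below the SpV arrays without overlap, with a difference of -0.68 ± 0.20 (adjusted p = 0.349).

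Col6a2, another type VI chain, was the only other measured collagen gene whose wild-type HVT arrays all lay below the SpV arrays, with means of 2614 ± 197 and 3385 ± 218 (SD, n = 3). Col20a1, a fibril-associated collagen, was the 1 gene with the opposite arrangement, at 263 ± 63.9 after HVT and 167 ± 8.99 at SpV. Its second probe set past the filter had 0.17 ± 0.42, with overlapping groups. By their brightest probe sets, 4 of 25 genes thus did not overlap in the lower direction and 1 in the higher. Of all genes, 9.22% and 7.91% did so.

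**Figure D1:**
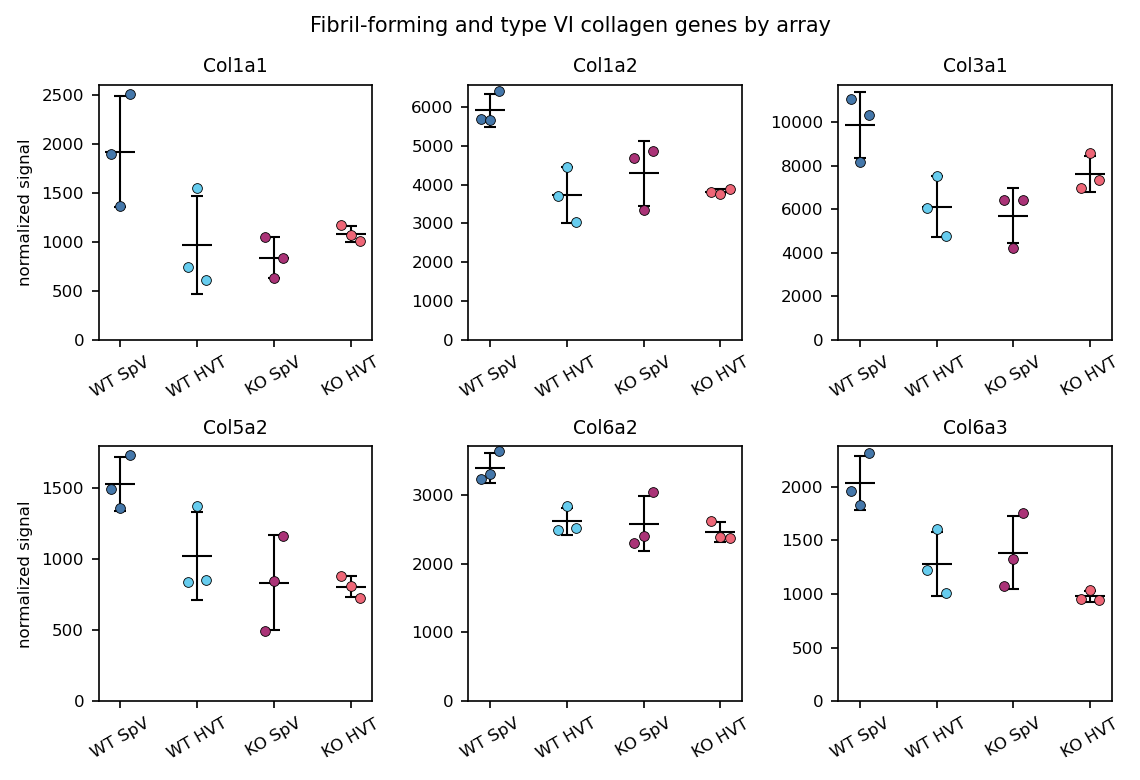
Normalized signal (linear axis from 0) of 6 fibril-forming and type VI collagen genes on each of the 12 arrays, by group, with the group mean as a bar and its SD (n = 3) as whiskers. For Col1a2, Col6a2 and Col6a3 the 3 wild-type SpV arrays are the highest, and for Col3a1 the wild-type HVT arrays lie below them while the knockout HVT arrays lie above the knockout SpV arrays.

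In knockout lungs the collagen genes had no common side after ventilation. The log2 difference was below 0 for 15 of 25 genes, against 50% of all genes, at a median of -0.06 against -0.00055 for all genes, and without knockout SpV array 3 that median was 0.12. The fibril-forming genes had a median of 0.07 with 5 of 7 above 0, and the type VI genes -0.07 with all 3 below 0.

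The smallest p belonged to Col15a1, a proteoglycan-like collagen of basement membrane zones. Its signal was 312, 185 and 336 on the wild-type SpV arrays, 314, 213 and 305 on the wild-type HVT arrays, 206, 171 and 268 on the knockout SpV arrays and 309, 559.7 and 457 on the knockout HVT arrays. The knockout HVT arrays lay above the knockout SpV arrays, and the difference was 0.97 ± 0.28 (adjusted p = 0.284). The highest of them was array 2, the one with high skeletal muscle markers. Without it the Col15a1 difference was 0.78. For Col3a1 the knockout HVT arrays also lay above the knockout SpV arrays, with a difference of 0.44 ± 0.20 (adjusted p = 0.468). Col6a3 had the reverse order without overlap, with a difference of -0.47 ± 0.20 (adjusted p = 0.438). The Col3a1 value was 0.24 without knockout SpV array 2, and the Col6a3 value -0.29 without knockout SpV array 3. A second Col3a1 probe set had 0.21 ± 0.27, and its knockout groups overlapped. Col4a3, a chain of the type IV network of alveolar and glomerular basement membranes, had signals of 470.3, 627 and 408 on the wild-type SpV arrays, 365, 436 and 415 on the wild-type HVT arrays, 321, 443 and 429.6 on the knockout SpV arrays and 273, 271 and 303 on the knockout HVT arrays. Its knockout HVT arrays were the 3 lowest of all 12, and the difference within the knockout was -0.46 ± 0.19 (adjusted p = 0.407). These 4 of 25 genes were the ones whose knockout groups did not overlap, where 14.4% of all genes did not.

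Calls in the knockout depended on knockout SpV array 1, for all genes as for collagen genes. Without it 1 of 25 collagen genes was called, Col4a2 (-0.85 ± 0.23, adjusted p = 0.0493), where 6.42% of all genes were. Without both that array and knockout HVT array 2, an alternative chosen after seeing the data, the 1 collagen gene called was Col13a1 (-1.43 ± 0.34, adjusted p = 0.0391), where 4.69% of all genes were. Neither count stands above the share of all genes. Col13a1, a transmembrane collagen of cell junctions, had a signal of 94.2 on knockout SpV array 1 and of 358 and 394 on the other knockout SpV arrays.

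**Figure D2:**
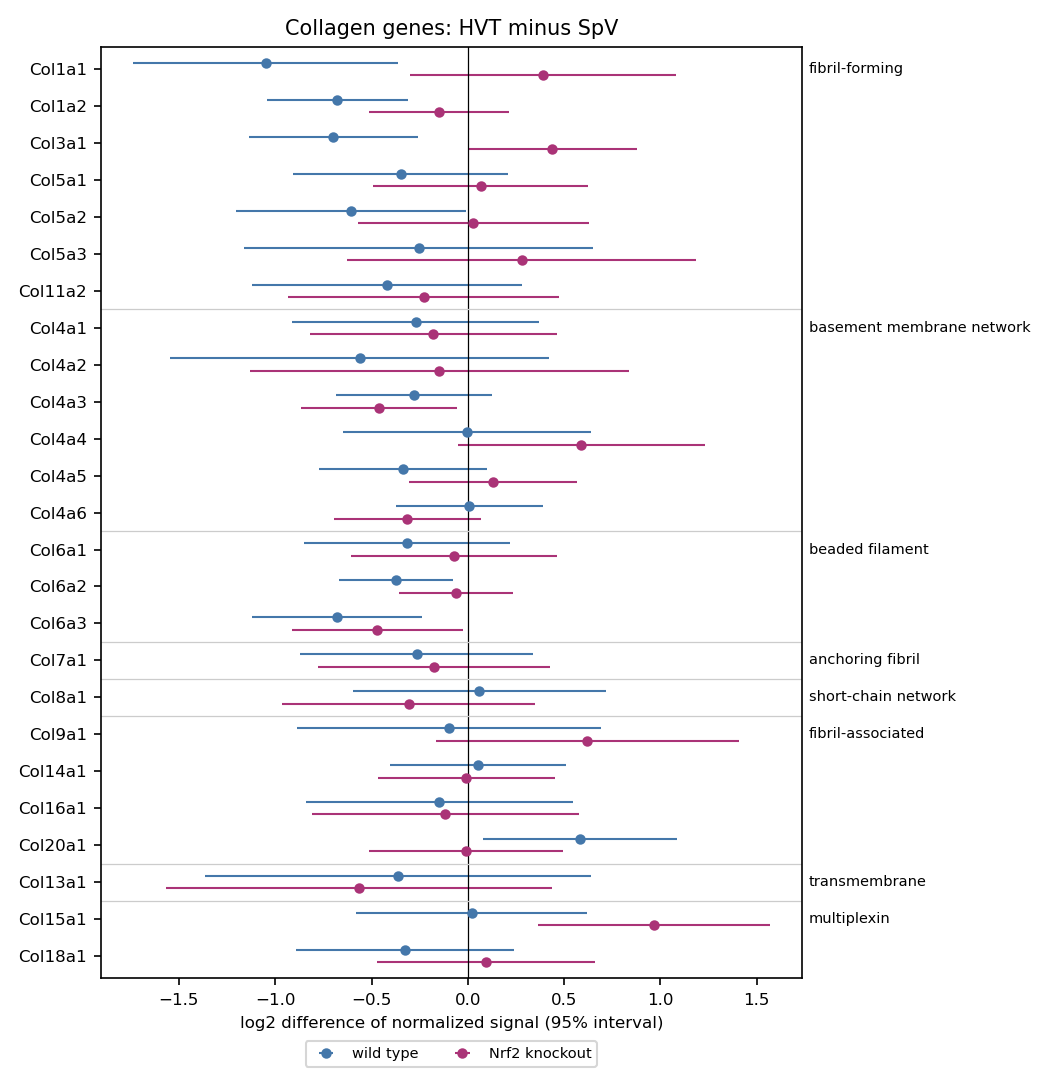
Log2 difference of HVT minus SpV for each of the 25 measured collagen genes, with 95% intervals from limma, in wild-type (blue) and knockout (purple) lungs, grouped by collagen class. In the wild type all 7 fibril-forming genes lie left of 0, at a median of -0.61, while in the knockout their median is 0.07.

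At SpV no collagen gene passed the test between the genotypes, and most had a value below 0 in lungs without Nrf2. The log2 difference was below 0 for 21 of 25 genes, against 51.4% of all genes, at a median of -0.32 against -0.01. Fibril-forming genes had a median of -0.48, type IV genes -0.46 and type VI genes -0.52. This comparison and that of ventilation in the wild type share the 3 wild-type SpV arrays, so their values are not independent of each other.

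Col1a1 had a difference of -1.17 ± 0.32 (adjusted p = 0.134) and Col3a1 of -0.80 ± 0.20 (adjusted p = 0.122). On the brightest probe set of each, every knockout SpV array lay below every wild-type SpV array. For Col1a1 the second probe set did not separate the groups. It had -0.60 ± 0.37 and was highest of the 12 arrays, at 1471, on knockout SpV array 1. Col5a2, a chain of type V collagen, which sets the width of type I fibrils, had signals of 1494, 1362 and 1734 on the wild-type SpV arrays, 837, 1377 and 854 on the wild-type HVT arrays, 495, 848 and 1163 on the knockout SpV arrays and 881, 809.5 and 729.5 on the knockout HVT arrays. The knockout SpV arrays lay below the wild-type SpV arrays, with a difference of -0.94 ± 0.28 (adjusted p = 0.170), and the lowest of the 12 was knockout SpV array 1. Without that array the difference was -0.61. Col4a5, a chain of the type IV network, had signals of 3004, 2081 and 3242 on the wild-type SpV arrays, 2278, 2465 and 1787 on the wild-type HVT arrays, 1417, 1662 and 1604 on the knockout SpV arrays and 1433, 1655 and 2100.0 on the knockout HVT arrays. Every knockout SpV array lay below every wild-type SpV array, with a difference of -0.80 ± 0.20 (adjusted p = 0.122).

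In all, 8 of 25 genes had knockout SpV arrays entirely below the wild-type SpV arrays (Col1a1, Col1a2, Col3a1, Col5a2, Col4a2, Col4a5, Col6a2 and Col6a3) and none entirely above, where 9.54% of all genes lay entirely below and 8.9% entirely above. Col4a2, the partner of Col4a1 in the common type IV molecule, had signals of 2650.4, 4097 and 3161 on the wild-type SpV arrays, 1729, 3126 and 1958 on the wild-type HVT arrays, 553, 2293 and 2615 on the knockout SpV arrays and 1299, 1458 and 1293 on the knockout HVT arrays. Its knockout SpV array 1 was far below the other knockout SpV arrays. Endothelial markers, of cells that rest on type IV collagen, were lower in the same comparison for 8 of 8 measured genes, with 1 called. Fibroblast markers were lower for 7 of 11, with 0 called, and smooth muscle markers were higher for 6 of 6, with 1 called. The part of these cells in the result was not tested. With the actin ratio of each array as a covariate, 5 collagen genes were called in this comparison in place of 0 (Col1a1, Col3a1, Col5a2, Col4a2 and Col4a5), each as lower in the knockout, and the share of all genes called was then 4.15% in place of 0.334%. Leaving out knockout SpV array 1 gave a collagen median of -0.21 with 19 of 25 below 0.

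In HVT lungs the genotype difference of the collagen genes was spread on both sides of 0. It was below 0 for 15 of 25, against 48.3% of all genes, at a median of -0.09 against 0.01. Fibril-forming genes had a median of 0.27 with 5 of 7 above 0, and type IV genes -0.42 with 5 of 6 below 0. With the deposited values left unscaled, where the median of all genes shifts by -0.77, the collagen median was -0.90, a value to be read against that shift. Without wild-type HVT array 2 the collagen median was -0.027. In these 2 groups the actin ratio differed with genotype without overlap. With that ratio as a covariate the collagen median was -0.017 and 0 collagen genes were called, where 1.5% of all genes were.

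Col4a3 had a difference of -0.50 ± 0.19 (adjusted p = 0.286), with every knockout HVT array below every wild-type HVT array. Col15a1 had 0.62 ± 0.28 (adjusted p = 0.368), with overlapping groups. Col7a1, the anchoring fibril collagen, had signals of 186, 139 and 233 on the wild-type SpV arrays, 128, 167 and 155 on the wild-type HVT arrays, 397, 195 and 226 on the knockout SpV arrays and 286, 237 and 176 on the knockout HVT arrays. In HVT lungs the knockout arrays lay above the wild-type arrays, with a difference of 0.57 ± 0.28 (adjusted p = 0.419), and the highest of the 12 was the dim knockout SpV array 1. Col5a1, the other main chain of type V collagen, had signals of 694, 679 and 533 on the wild-type SpV arrays, 606, 423 and 463 on the wild-type HVT arrays, 1004, 518 and 623 on the knockout SpV arrays and 535, 863 and 811 on the knockout HVT arrays, and a difference of 0.54 ± 0.26 (adjusted p = 0.405) in HVT lungs. The mean over all of its probe sets gave -0.12. Unscaled values gave -0.17 for Col15a1, -0.15 for Col7a1 and -0.33 for Col5a1, to be read against the shift of all genes. The groups did not overlap for Col4a2, Col4a3 and Col8a1 in the lower direction (13% of all genes) and for Col7a1 in the higher (12.4%).

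**Figure D3:**
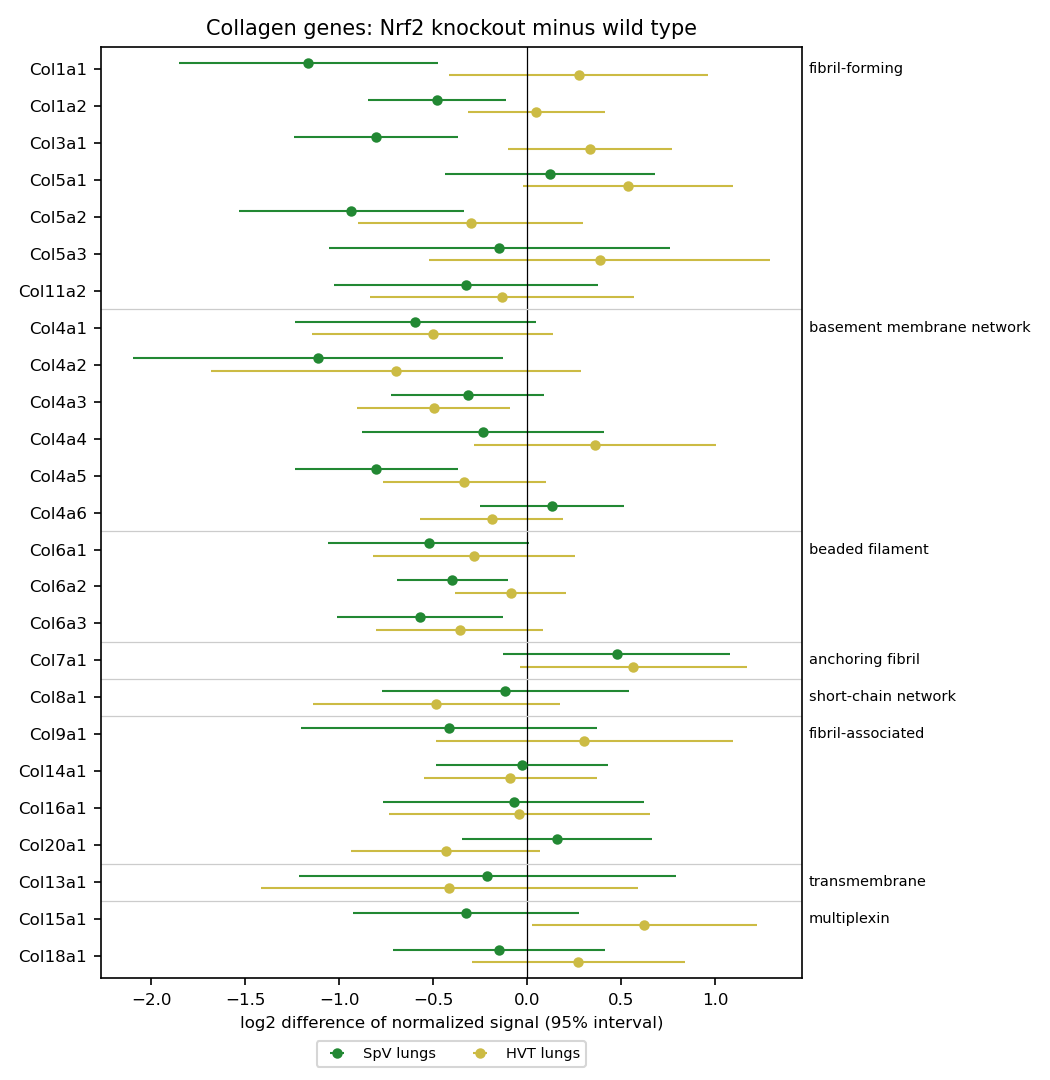
Log2 difference of knockout minus wild type for each of the 25 measured collagen genes, with 95% intervals from limma, in SpV (green) and HVT (yellow) lungs, grouped by collagen class. In SpV lungs 21 of 25 genes lie left of 0, and in HVT lungs 15 do.

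Whether ventilation acted differently in the genotypes was tested as the interaction, the knockout's ventilation difference minus that of the wild type. No gene passed in the whole table (0 of 9294, with 452 at an unadjusted p under 0.05), and so no collagen gene did. The collagen genes with the smallest p were mostly chains of types I and III. Col3a1 had 1.14 ± 0.29 (adjusted p = 0.922), which combines a difference of -0.70 ± 0.20 in the wild type and 0.44 ± 0.20 in the knockout. Col1a1 had 1.44 ± 0.45, Col15a1 0.95 ± 0.39 and Col1a2 0.53 ± 0.24, each at adjusted p = 0.9998. With array weights, where 1.86% of all genes were called, Col1a1 (1.91 ± 0.37, adjusted p = 0.0205) and Col3a1 (1.28 ± 0.25, adjusted p = 0.0239) were called. The interaction was above 0 for 19 of 25 collagen genes, at a median of 0.31 against 0.02 for all genes (47.1% of all genes below 0), and for all 7 fibril-forming genes, at a median of 0.53. Unscaled, the collagen median was -0.08 against -0.32 for all genes.

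Averaged over genotypes, ventilation went with a collagen median of -0.15 against -0.01 for all genes, with 19 of 25 below 0 (52.3% of all genes). Col6a3 had -0.57 ± 0.14 (adjusted p = 0.106), Col1a2 -0.41 ± 0.12 (adjusted p = 0.162), Col4a3 -0.37 ± 0.13 (adjusted p = 0.246) and Col15a1 0.49 ± 0.20 (adjusted p = 0.293). No collagen gene had all 6 HVT arrays on one side of all 6 SpV arrays, an arrangement that 1.12% of all genes showed. Without knockout SpV array 1 the count was 3 in place of 0, with Col6a3 (-0.66 ± 0.13, adjusted p = 0.0135), Col4a2 (-0.71 ± 0.16, adjusted p = 0.0206) and Col4a3 (-0.44 ± 0.12, adjusted p = 0.0492) called as lower, where 6.97% of all genes were called in place of 0.108%. Leaving out knockout HVT array 2 as well, after seeing the data, gave calls for Col6a3, Col4a2 and Col13a1, where 5.51% of all genes were called.

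Averaged over breathing, lungs without Nrf2 had less Col4a5 signal, with a difference of -0.57 ± 0.14 (adjusted p = 0.0464). The 6 knockout arrays ran from 1417 to 2100.0 and the 6 wild-type arrays from 1787 to 3242. They overlapped through knockout HVT array 3, which lay above wild-type HVT array 3 and wild-type SpV array 2. As 1 call among 25 genes, it does not stand above the share of all genes called, 3.74%. This call stood close to the threshold. It ended with the replicate number as a block (adjusted p = 0.0522), with no filter on low values (0.0563), with no intensity trend (0.0672), on unscaled values (0.239) and with the mean of all probe sets of a gene, which gave -0.40 ± 0.14 (0.132). No collagen gene had all 6 knockout arrays on one side of all 6 wild-type arrays there, where 2.53% of all genes did. The call also ended without wild-type SpV array 1 (adjusted p = 0.0980), wild-type SpV array 3 (0.119), wild-type HVT array 1 (0.0872), wild-type HVT array 2 (0.126), knockout SpV array 3 (0.0745), knockout HVT array 1 (0.106) or knockout HVT array 2 (0.0918), with differences between -0.51 and -0.58 in these 7 fits. Without knockout SpV array 3, Col5a2 was called instead (-0.76 ± 0.18, adjusted p = 0.0489). The next collagen genes by p did not pass: Col6a3 had -0.46 ± 0.14 (adjusted p = 0.0928), Col5a2 -0.62 ± 0.20 (adjusted p = 0.0978) and Col4a3 -0.41 ± 0.13 (adjusted p = 0.107). Of all 25, 19 were below 0, at a median of -0.23 against 0.01 for all genes (49% of all genes below 0). That median was -0.13 with 17 below 0 without knockout SpV array 2, and -0.13 with trimmed mean scaling alone. Type IV genes had a median of -0.48 and type VI genes of -0.40. The HVT arrays in this average also differed in actin ratio between the genotypes. With that ratio as a covariate Col4a5 had -0.55 ± 0.15 (adjusted p = 0.0414), where 7.25% of all genes were called.

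A second, dimmer probe set for Col4a5 was not called, though its value had the same sign. It had -0.23 ± 0.20 (adjusted p = 0.577) with signals of 344, 319 and 389 on the wild-type SpV arrays, 361, 302 and 322 on the wild-type HVT arrays, 149, 336 and 405 on the knockout SpV arrays and 337, 313 and 255 on the knockout HVT arrays, where knockout SpV array 1 was the lowest and the other knockout arrays lay on both sides of the wild-type arrays. When every probe set was tested on its own, an alternative chosen after seeing the data with adjustment over 14510 probe sets, the brighter Col4a5 probe set had adjusted p = 0.0510. In that fit, 2 collagen probe sets were called in the averaged genotype comparison, where 3.23% of all probe sets were. These items were chosen after their values were seen. The first belongs to Col4a1, the partner of Col4a2, and had signals of 2086, 2137 and 2560.4 on the wild-type SpV arrays, 1370.0, 2304 and 1575 on the wild-type HVT arrays, 1182, 1057 and 864 on the knockout SpV arrays and 1259, 1277 and 1127 on the knockout HVT arrays. All 6 knockout arrays lay below all 6 wild-type arrays, with a difference of -0.80 ± 0.14 (adjusted p = 0.0107), and of -1.12 ± 0.20 (adjusted p = 0.0308) in SpV lungs, where 0.448% of probe sets were called. The brighter Col4a1 probe set, which represents the gene above, had signals of 6178, 7299 and 7284 on the wild-type SpV arrays, 5791, 7190.1 and 4481 on the wild-type HVT arrays, 2557, 5431 and 6838 on the knockout SpV arrays and 4652, 4086 and 3440.3 on the knockout HVT arrays. Its genotypes overlapped. The other called probe set belongs to Col5a2, at -0.91 ± 0.20 (adjusted p = 0.0298), with signals of 1049.7, 491 and 936 on the wild-type SpV arrays, 406, 603 and 385 on the wild-type HVT arrays, 293, 292 and 417 on the knockout SpV arrays and 311, 335 and 239 on the knockout HVT arrays. Every knockout array but SpV array 3 lay below every wild-type array.

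**Figure D4:**
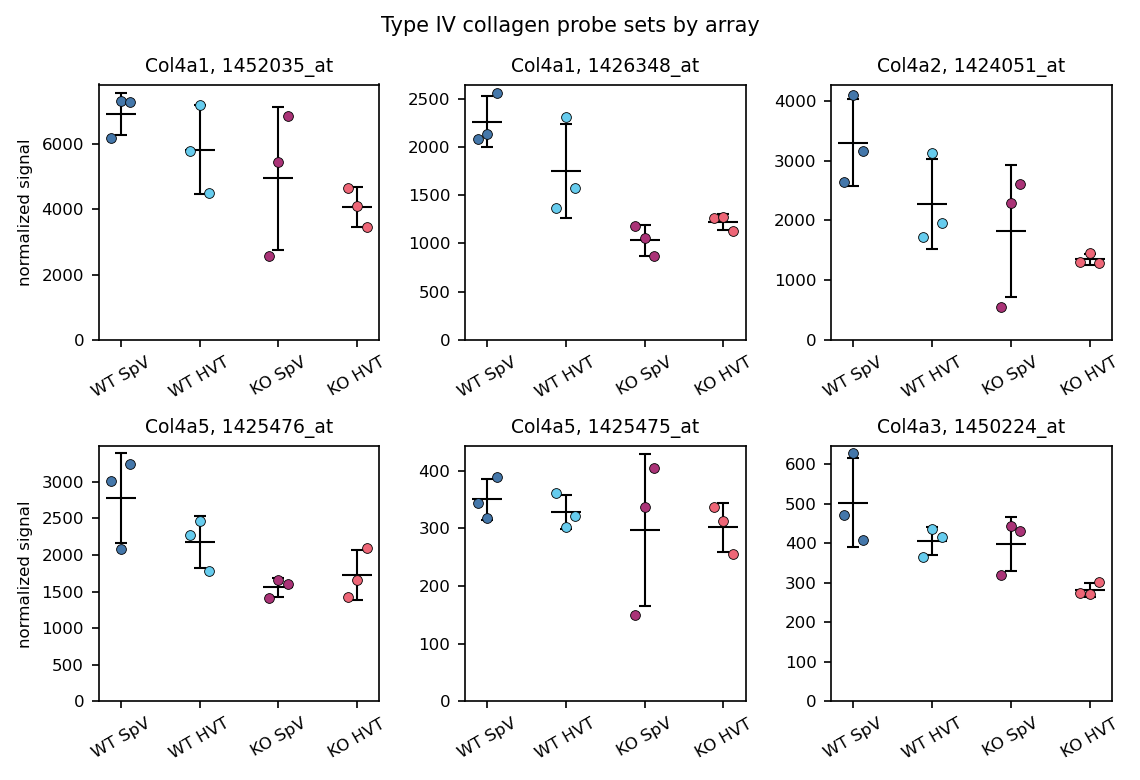
Normalized signal (linear axis from 0) of 6 probe sets of type IV collagen genes on each of the 12 arrays, by group, with the group mean as a bar and its SD (n = 3) as whiskers. In the second Col4a1 panel all knockout arrays sit at or below 1277 and all wild-type arrays at or above 1370.0, while the brighter Col4a1 probe set and both Col4a5 probe sets overlap between the genotypes.

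For the 12 genes with several probe sets past the filter, the probe sets had the same sign in 11 for ventilation in the wild type and in 11 for genotype at SpV, in 5 for ventilation in the knockout and in 8 for genotype at HVT. Col1a1, Col1a2 and Col3a1 had both probe sets below 0 in the first of these comparisons and in the second. The dimmer Col1a1 probe set had -0.56 ± 0.37 and -0.60 ± 0.37 there, and 0.83 ± 0.52 for the interaction. The dimmer Col1a2 probe set had -0.83 ± 0.24 and -0.87 ± 0.24 in these 2 comparisons, and that of Col3a1 -1.12 ± 0.27 and -1.13 ± 0.27. The largest gap was 1.65, between probe sets of Col5a1 in the HVT genotype comparison. The dimmest of them read 7.82 on knockout SpV array 1 and 26.5 and 29.8 on knockout HVT arrays 1 and 3, under the minimum of 100.

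The other measured genes had smaller or less steady values. Col6a1, the third chain of type VI collagen, averaged 2739 ± 245 at SpV in the wild type, 2223 ± 460.1 after HVT in the wild type, 1993 ± 734 at SpV without Nrf2 and 1808 ± 215 after HVT without Nrf2 (SD, n = 3), with its lowest array the dim knockout SpV array 1. Col14a1, which binds to fibril surfaces, averaged 439 ± 83.5, 453 ± 44.6, 437 ± 120.3 and 426 ± 56.1 in the same order, means that lie within 1 SD of each other. Col18a1, the source of the fragment endostatin, averaged 326 ± 44.5, 266 ± 92.3, 294 ± 58.4 and 316 ± 72.5. Col4a4, which assembles with Col4a3 and Col4a5, averaged 935 ± 129.7, 972 ± 391, 820.3 ± 303 and 1217 ± 300.4, and Col4a6 averaged 268 ± 28.5, 269 ± 22.9, 297 ± 47.3 and 235 ± 30.0. Neither had groups that stood apart in any comparison. Means of Col5a3, Col8a1, Col9a1, Col11a2 and Col16a1 stayed between 76.9 and 389 in all groups.

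Genes that make, fold and break down collagen were read from lists of the same pathway. Calls were made in the averaged genotype comparison only, and all of them were lower in the knockout, where 2.14% of all genes were called as lower. Among 18 measured genes of collagen folding and modification, 2 were lower: the lysyl hydroxylase Plod1, at -1.15 ± 0.19 (adjusted p = 0.00916), and Crtap, a subunit of the prolyl 3-hydroxylase complex, at -0.52 ± 0.13 (adjusted p = 0.0446). Among 13 measured breakdown genes 2 were lower: the membrane collagenase Mmp14, at -0.86 ± 0.18 (adjusted p = 0.0228), and Mrc2, a receptor that takes up collagen fragments, at -0.74 ± 0.17 (adjusted p = 0.0340). Of the 5 metalloproteinase inhibitors, the matrix-bound Timp3 was lower, at -0.81 ± 0.19 (adjusted p = 0.0380). No member was called among 8 measured genes of procollagen processing and cross-linking, 5 collagen receptors, 16 collagen-binding matrix proteins, 16 basement membrane partners of type IV collagen or 18 genes of the TGF-beta pathway, which drives collagen transcription.

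The members of these lists with the smallest p had the following values in the averaged genotype comparison. Pcolce2, an enhancer of procollagen processing, had -0.83 ± 0.23 (adjusted p = 0.0603) and Adgrg1, a receptor for type III collagen, -0.29 ± 0.14 (adjusted p = 0.249). Sparc, a collagen-binding glycoprotein, had -0.84 ± 0.23 (adjusted p = 0.0616). Npnt, a basement membrane ligand of integrins, had -1.62 ± 0.42 (adjusted p = 0.0516) and Nid1, which links laminin to type IV collagen, -1.10 ± 0.30 (adjusted p = 0.0639). Tgfbr3, a co-receptor of TGF-beta, had -0.62 ± 0.17 (adjusted p = 0.0653). For ventilation in the wild type, Pcolce had -0.49 ± 0.17 (adjusted p = 0.440), the inhibitory Smad7 -0.50 ± 0.17 (adjusted p = 0.451) and Thbs1, which activates latent TGF-beta, 2.23 ± 0.73 (adjusted p = 0.416). For ventilation in the knockout, the gelatinase Mmp9 had -1.08 ± 0.25 (adjusted p = 0.212) and the laminin chain Lamb1 -0.78 ± 0.16 (adjusted p = 0.202). None of these passed.

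Markers of the cells that make or border collagen also differed between the groups. A score was taken per array as the mean log2 signal of a list relative to the mean of the 12 arrays. The collagen score ran from 0.16 to 0.35 on wild-type SpV arrays, -0.21 to 0.08 on wild-type HVT, -0.25 to 0.10 on knockout SpV and -0.14 to -0.06 on knockout HVT arrays, so the 3 wild-type SpV arrays were the highest of the 12. The score of 11 fibroblast markers ran from 0.26 to 0.42, -0.13 to 0.26, -0.73 to 0.38 and -0.44 to -0.35 in the same order, and that of 8 endothelial markers from 0.57 to 0.96, -0.01 to 0.81, -1.31 to 0.30 and -1.05 to -0.62. The fibroblast and endothelial scores were lowest on knockout SpV array 1. The score of 6 smooth muscle markers ran from -0.49 to -0.45, -0.22 to 0.11, 0.03 to 0.43 and 0.24 to 0.44 in the same order. For that list the 3 wild-type SpV arrays were the lowest of the 12. Single fibroblast markers lay on both sides of 0 in the averaged genotype comparison, with 3 higher and 8 lower in the knockout. The part of these cells in the collagen results was not tested.

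In the averaged genotype comparison, 1 of 11 fibroblast markers (Inmt), 4 of 8 endothelial and 4 of 6 alveolar type I markers were called as lower in the knockout, and 3 of 6 smooth muscle and 6 of 7 heart muscle markers as higher, against 2.14% of all genes called as lower and 1.6% as higher. None of 4 mesothelial, 5 alveolar type II, 4 airway epithelial or 3 skeletal muscle markers was called.

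**Figure D5:**
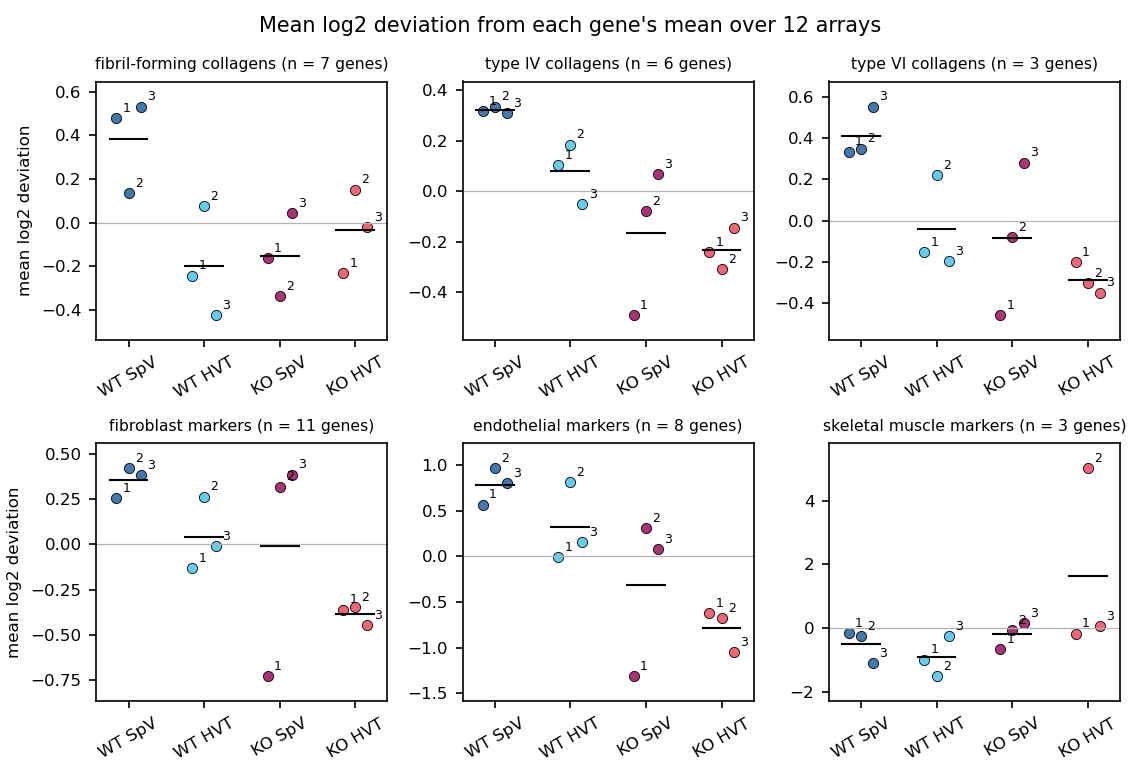
Mean log2 deviation of 3 collagen classes and 3 marker lists from each gene's mean over the 12 arrays, 1 point per array, numbered by replicate, with the group mean as a bar. Wild-type SpV arrays are the highest for type IV and type VI collagens, knockout SpV array 1 is the lowest of the 12 for fibroblast and endothelial markers, and knockout HVT array 2 stands apart at 5.02 for skeletal muscle markers.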

How the data were processed

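Total RNA of mouse lung was hybridised to 12 single-colour arrays, 3 per group. The deposited values are probe set signals, a linear intensity, made with the software GCOS 1.4 per the submitters' processing notes; the design text speaks of scaling to an average of 500, which the deposited intensity values do not show, since trimmed means differ from array to array. Each array was therefore scaled to a mean of 500 (trimmed by 2% at each end) and the arrays were quantile normalized. A pseudocount of 16 was added before log2, which understates the change of dim genes. Probe sets at 100 or more on at least 3 arrays were kept, and each gene took its brightest one. Names came from the platform's annotation.

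Group means were fitted to 9294 genes with limma 3.58.1 (lmFit, eBayes with trend) in R 4.3.3, with two-sided tests and Benjamini-Hochberg adjustment within each of 7 contrasts. The fit was also run on simulated data with independent noise and known changes in the wild-type HVT group only. For ventilation in the wild type it recovered 60% of changes of 1 log2 unit and 92% of changes of 2. It made 12 false calls there among 9294 genes. The simulation held no dim or outlying array. Its planted changes led to more calls than the 7 genes called in the real comparison. More calls ease the adjusted threshold, so these shares do not say how often a collagen change would be called here. Array number limits the precision: the median SE of a collagen gene's difference was 0.276 between 2 groups. Nothing in the labels says that replicates were separate animals, so p-values reflect only how these samples spread, which can be technical. Gene values are given on every array for collagen genes called in any contrast, the 4 with the smallest p in each contrast, and Col1a1, Col1a2, Col3a1, Col4a1 and Col4a2. Of a pathway list, members called are named, or else those with the smallest p. The members, gene lists and markers were chosen with earlier results of these data known. Alternatives covered scaling, pseudocount, filter, probe set choice, replicate block, actin covariate, array weights and leaving out arrays.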

Additional observations from a re-analysis of the deposited data

How the results depend on the processing

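Trimmed mean scaling alone, equal medians, pseudocounts of 1 and 64, a filter at 200 and leaving out s_at, x_at and a_at probe sets kept every count of collagen calls (0 in 6 comparisons and 1 for genotype averaged over breathing). On the deposited values with no scaling, medians were -0.35 for ventilation in the knockout, -0.75 and -0.90 for genotype at SpV and HVT, -0.70 for genotype averaged over breathing and -0.075 for the interaction, against shifts of all genes of -0.29, -0.47, -0.77, -0.61 and -0.32, and the averaged genotype comparison had 0 calls. In HVT lungs the genotype values of Col15a1, Col5a1 and Col7a1 were -0.17, -0.33 and -0.15 unscaled, and that of Col5a1 was -0.12 with the mean of all probe sets. The averaged genotype count was 0 with no filter, without the intensity trend and with the replicate block, and 2 with the mean of all probe sets, the actin covariate, array weights, or each probe set on its own; 7.25% of all genes were called there with the covariate and 15.9% with weights.

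With the actin ratio as a covariate, collagen calls numbered 1 for ventilation in the wild type, 5 for genotype at SpV and 2 for ventilation averaged over genotypes, where 0.764%, 4.15% and 5.44% of all genes were called. With array weights, whose estimation stopped before its tolerance, they numbered 6, 8, 5 and 2 for ventilation in the wild type, ventilation in the knockout, genotype at SpV and the interaction, and 9 for ventilation averaged over genotypes, where the shares of all genes called were 4.64%, 15.3%, 15.4%, 1.86% and 16.8%. The medians were then -0.23 for ventilation in the knockout, -0.19 for genotype at SpV and -0.31 for ventilation averaged over genotypes. Each probe set on its own, chosen after seeing the data, gave 1 call for genotype at SpV. Leaving out 1 array at a time gave 0 to 1 calls for ventilation in the knockout, 0 to 3 for ventilation averaged over genotypes and 0 to 1 for genotype averaged over breathing, and medians of -0.092 to 0.12 for ventilation in the knockout, -0.42 to -0.21 for genotype at SpV and -0.26 to -0.13 for genotype averaged over breathing. Without both knockout SpV array 1 and knockout HVT array 2, also chosen after seeing the data, the counts were 1, 3 and 0, where 4.69%, 5.51% and 5.91% of all genes were called. The cause of these changes was not tested.

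The titles do not say what a replicate number stands for. The correlation of same-numbered arrays' deviations from the group means ran from -0.17 to 0.39 over 18 pairs, with a median of 0.02. Over 36 pairs of other numbers it ran from -0.40 to 0.30, with a median of -0.02. Of the 12 arrays, 7 correlated best with one of their own number, and what lay behind this was not tested. With the replicate block 510 genes were called in the averaged genotype comparison, against 348, and Col4a5 had -0.57 ± 0.15 (adjusted p = 0.0522). A fit on only the groups compared could not be made for the interaction or the averages, and changed no other collagen count. With 3 arrays a group, differences near the SE of single genes were not detectable, and larger ones could be missed. In simulated data 60% of changes of 1 log2 unit were recovered. More genes were called there than in the real comparison, so that share does not carry over to collagen genes. Col1a1, at -1.05 ± 0.32 for ventilation in the wild type, was not called. Dim genes such as Col11a2 lay near the minimum.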
